A study of Mus musculus with 9 samples.

Results

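The phagocyte NADPH oxidase genes were read across 3 populations of sorted mouse cells. The set has 7 members, chosen by gene symbol: Cybb, Cyba, Ncf1, Ncf4, Rac2, Hvcn1 and Nos2. Each has 1 probe set with a single symbol on the array, and all 7 are among the 19937 genes tested. Each group has 3 arrays, one group from Ly6C-high microglia, the next from the Ly6C-low fraction and the last from spleen monocytes. All cells came from wild type C57BL/6 mice. No treatment, age or sex is stated in the labels. Sorting used staining for Ly6C, F4/80, CD11b, CD45 and MHC II, and the labels call the Ly6C-high cells MgSCs and the Ly6C-low cells bulk microglia. The gate for the monocytes is not given, nor whether replicates came from separate animals or pools, so the spread between arrays may be technical.

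The phagocyte NADPH oxidase moves electrons from NADPH across a membrane onto oxygen and so makes superoxide, which phagocytes use against microbes and which microglia also release in injured brain. Its membrane core is a pair of proteins, the catalytic subunit encoded by Cybb and its partner encoded by Cyba. At rest the cytosolic subunits, among them the products of Ncf1 and Ncf4, stay apart from the core. On stimulation they move to the membrane together with a Rac GTPase, in neutrophils mainly that encoded by Rac2. Hvcn1 encodes a voltage-gated proton channel that carries protons out to balance the charge that the oxidase moves. Nos2 encodes the inducible nitric oxide synthase, a separate enzyme whose product reacts with superoxide. In humans, loss of an oxidase subunit causes chronic granulomatous disease.

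The genes lie on different chromosomes of the mouse genome (RefSeq, GRCm38.p6). Cybb is on chromosome X, Cyba on 8, Ncf1 and Hvcn1 on 5, Ncf4 and Rac2 on 15, and Nos2 on 11. The promoters of Cybb and Ncf1 are shown because the Ly6C-low arrays lay above the monocyte arrays for Ncf1 and below them for Cybb. Each run holds the 250 bases before the annotated start and 30 after it, on the minus strand, at chrX:9469295-9469574 for Cybb and chr5:134229596-134229875 for Ncf1. Capitals mark GAGGAA, a purine-rich core of the kind bound by the factor PU.1, and the core of the interferon-stimulated response element, a pair of GAAA with 2 bases between them, each on either strand.
Cybb promoter: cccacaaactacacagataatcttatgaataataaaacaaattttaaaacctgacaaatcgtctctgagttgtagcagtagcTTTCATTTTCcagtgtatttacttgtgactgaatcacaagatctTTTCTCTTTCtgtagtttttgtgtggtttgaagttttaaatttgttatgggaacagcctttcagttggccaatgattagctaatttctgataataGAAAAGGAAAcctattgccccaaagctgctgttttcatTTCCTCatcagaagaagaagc
Ncf1 promoter: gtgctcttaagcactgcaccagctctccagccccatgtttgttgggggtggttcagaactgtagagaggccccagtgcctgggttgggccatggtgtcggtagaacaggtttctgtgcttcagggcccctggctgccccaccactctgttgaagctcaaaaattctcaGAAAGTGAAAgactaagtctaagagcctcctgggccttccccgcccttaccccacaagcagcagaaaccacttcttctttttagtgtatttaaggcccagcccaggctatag
In the Cybb window the response element core starts at bases 83 and 127 on the reverse strand and at base 222 on the strand shown, counted from 1 at its 5′ end, and GAGGAA starts at base 260 on the reverse strand. The Ncf1 window holds the response element core at base 169 and no GAGGAA. The matches do not overlap each other. Of 32851 promoter windows of the same length, 26% held GAGGAA and 3.28% held the response element core. A match describes the letters and not binding. The table held a promoter for 3 of the 7 members.

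The arrays measure log2 intensities, so 1 unit is a doubling, and values below are mean ± SD over 3 arrays a group where not given for each array. Differences are log2 fold changes with their standard error (SE) from limma, and adjusted p-values are Benjamini-Hochberg values over all 19937 genes with a threshold of 0.05. Between probe sets differences were compared and not levels, apart from choosing a gene's brightest probe set, calling Nos2 dim and filtering dim genes. Correlations between arrays were lowest within the Ly6C-high group, at 0.872 to 0.924, against 0.967 to 0.980 within Ly6C-low microglia and 0.978 to 0.983 within monocytes. The labelled cell types were checked against marker lists. The 14 brain endothelium genes averaged 10.3 to 10.8 in Ly6C-high arrays, 5.93 to 7.28 in Ly6C-low arrays and 5.83 to 5.95 in monocytes, and the 13 homeostatic microglia genes 8.05 to 8.75, 10.8 to 11.2 and 7.23 to 7.28 in that order. The F4/80 gene Adgre1 averaged 6.70 ± 0.62 in the Ly6C-high, 10.18 ± 0.26 in the Ly6C-low and 8.96 ± 0.01 in the monocyte arrays, so the Ly6C-high arrays were low in an antigen of the sort. Of 4 sort antigen genes measured, 3 were lower in Ly6C-high than in Ly6C-low microglia and 4 lower than in monocytes. Of all genes, 15.4% and 21.5% were called in these comparisons. The Ly6C genes Ly6c1 and Ly6c2 had no value here, so the antigen that separates the microglia groups was not checked. In bulk RNA, fewer cells of a type and less RNA per cell cannot be told apart.

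Ly6C-high replicate 2 and Ly6C-low replicate 3 stood apart in blood-cell markers and are the arrays of doubt below. The 12 classical monocyte genes averaged 7.71, 9.71 and 6.73 in Ly6C-high replicates 1, 2 and 3, against 6.44 to 6.90 in Ly6C-low arrays and 10.3 to 10.5 in monocytes. The 15 neutrophil genes averaged 6.13, 7.40 and 6.07 in the Ly6C-high arrays, 6.43, 6.63 and 8.85 in the Ly6C-low arrays and 9.74 to 10.5 in the monocyte arrays. No marker is at 0, because the table holds log2 intensities with a lowest value of 2.54. The B cell list averaged 8.66 to 9.28 in the monocyte arrays, against 5.92 to 6.23 in Ly6C-high and 5.53 to 5.88 in Ly6C-low arrays, and the T and NK cell list 7.41 to 8.19, against 5.08 to 5.46 and 5.07 to 5.24. Monocytes and neutrophils both use this oxidase, and the part of these cells in the results below was not tested beyond leaving the 2 arrays out. The part of B, T and NK cells in the monocyte arrays was not tested. By another measure Ly6C-high replicate 1 stood apart. The weight that limma gives an array by its fit was lowest there, at 0.14, against 0.42 and 1.00 in Ly6C-high replicates 2 and 3. Its interquartile range of log2 values was the narrowest, at 2.24, against 2.62 to 2.91 in the other arrays.

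**Figure D1:**
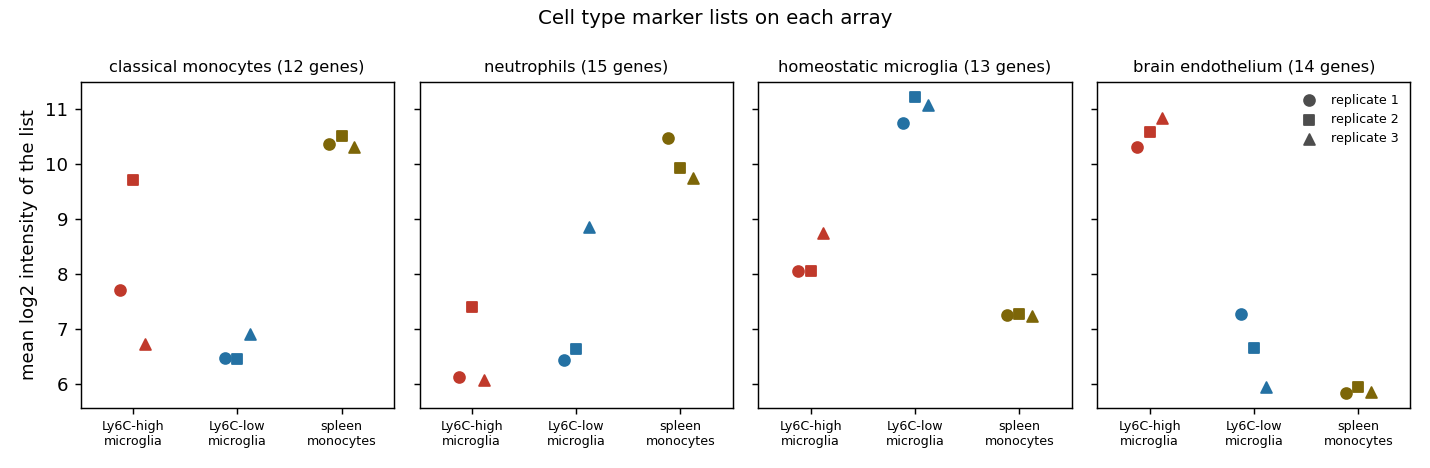
Mean log2 intensity (y axis) of 4 marker lists on each of the 9 arrays, by group (x axis), with the replicate as the marker shape. Ly6C-high replicate 2 has a classical monocyte mean of 9.71, close to the monocyte arrays, and Ly6C-low replicate 3 has a neutrophil mean of 8.85, above the other Ly6C-low arrays.

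The first comparison sets the Ly6C-high subset, which the study singles out, against bulk microglia. The organiser subunit gene Ncf1 and the proton channel gene Hvcn1 were both lower in Ly6C-high microglia, about 4.06-fold and 4.80-fold. The other 5 members did not pass the test. Thus 2 of 7 members were called, both lower, where 15.4% of all genes were called in either direction, 11% lower and 4.49% higher. With limma 0 members were higher, and 1, Nos2, was at an unadjusted p under 0.05. The arrays of these groups were fully separate for 3 members (Ncf1, Hvcn1 and Nos2) and for 30.1% of all genes. Without Ly6C-high replicate 2, 5 members and 19.5% of all genes were called. The median log2 fold change was -0.69 over the members and 0.05 over all genes. The 7 pan-leukocyte and myeloid genes had a median of -1.34 in the same comparison, with 3 of them called lower, and their part in the calls of Ncf1 and Hvcn1 was not tested.

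Ncf1 stood at 7.82, 8.46 and 7.64 in Ly6C-high replicates 1, 2 and 3, against 10.07, 9.97 and 9.93 in Ly6C-low microglia and 9.55, 9.14 and 9.14 in monocytes. All Ly6C-high arrays lay below all others, and the Ly6C-low arrays lay above all monocyte arrays. Ncf1 fell in Ly6C-high microglia by 2.02 ± 0.21 (SE) on the log2 scale against Ly6C-low microglia (adjusted p = 4.35e-04) and by 1.30 ± 0.21 against monocytes (2.47-fold, adjusted p = 0.00366). Both calls held in all 22 alternative analyses, including the one without Ly6C-high replicate 2, where the difference from Ly6C-low microglia was -2.26. Ly6C-low microglia were 0.72 ± 0.21 above monocytes, which did not pass (adjusted p = 0.0594) but did in 9 of 22 alternatives, whose adjusted p-values ran from 0.00694 to 0.188 over all 22.

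Hvcn1 was at 6.05, 5.50 and 6.66 in the Ly6C-high arrays, against 7.71, 8.76 and 8.52 in the Ly6C-low arrays and 7.01, 6.87 and 7.93 in the monocyte arrays. The Ly6C-high arrays were again below all others, while Ly6C-low and monocyte arrays overlapped. The difference between the microglia groups was -2.26 ± 0.40 (adjusted p = 0.00563), and it was called in all 22 alternatives, with adjusted p-values from 0.00272 to 0.0497. Against monocytes the Ly6C-high difference of -1.20 ± 0.40 did not pass (adjusted p = 0.0643, and 0.0395 to 0.185 over the alternatives, 3 of which called it). Ly6C-low microglia differed from monocytes by 1.06 ± 0.40, also short of the threshold (adjusted p = 0.128). Hvcn1 was lowest in Ly6C-high replicate 2, the array in which the monocyte list was highest among the Ly6C-high arrays.

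The differences of Ncf1 and Hvcn1 between the microglia groups depended on whether they were read against all genes, as above, or against a leukocyte gene within each array. Minus Itgam, which encodes CD11b, and relative to the monocyte mean, Ncf1 was at 1.29, 0.43 and 0.06 in the Ly6C-high arrays and -0.20, -0.23 and -0.19 in the Ly6C-low arrays, so that it lay higher in the Ly6C-high arrays. Minus Ptprc, which encodes CD45, Ncf1 was at 2.07, 0.73 and 2.26 in the Ly6C-high arrays and 2.66, 2.09 and 1.97 in the Ly6C-low arrays, and the microglia groups overlapped. The monocyte arrays were at 0.21, -0.02 and -0.19 on that scale, below every Ly6C-high and Ly6C-low array. Itgam itself was lower in Ly6C-high microglia by the test (-2.82 ± 0.32, adjusted p = 6.65e-04), and Ptprc had -1.47 ± 0.52 (adjusted p = 0.101). Hvcn1 overlapped between the groups on both scales, at 2.30, -0.22 and 3.28 in the Ly6C-high arrays against 2.31, 2.88 and 2.57 in the Ly6C-low arrays minus Ptprc, and at 1.52, -0.52 and 1.08 against -0.56, 0.56 and 0.41 minus Itgam. Such a ratio shows unequal change of 2 genes and not which of them changed.

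The membrane core genes varied widely among the Ly6C-high arrays. Cybb, the catalytic subunit gene, was at 6.64, 10.23 and 6.92 in Ly6C-high replicates 1, 2 and 3, against 6.90, 7.74 and 8.03 in Ly6C-low microglia and 11.50, 11.54 and 11.52 in monocytes. Ly6C-high replicate 2 lay above every Ly6C-low array, replicate 1 lay below them all, and replicate 3 lay within their range. The groups differed by 0.38 ± 0.83 with a 95% interval from -1.52 to 2.27 (adjusted p = 0.784), an interval too wide to show that they are alike. Without replicate 2 the difference was -0.77 (adjusted p = 0.111), so its direction depends on that array.

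Cybb was lower in both microglia groups than in monocytes, and no microglia array reached the monocyte range. Ly6C-low microglia differed from monocytes by -3.97 ± 0.83 (15.6-fold lower, adjusted p = 0.0133). That call was lost without Ly6C-low replicate 1 (-3.64, adjusted p = 0.0535) and held in the other 21 alternatives. Ly6C-high microglia differed from monocytes by -3.59 ± 0.83 (12-fold lower, adjusted p = 0.0171), and here 5 of 22 alternatives lost the call with adjusted p-values up to 0.0569. The fold depended on the array left out, at 26.7 without Ly6C-high replicate 2, 8.47 without replicate 3 and 7.69 without replicate 1, the last of them not called (adjusted p = 0.0533).

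Cyba, which encodes the partner that stabilises the catalytic subunit, was at 7.01, 10.84 and 8.52 in Ly6C-high microglia, against 9.29, 9.64 and 9.54 in Ly6C-low microglia and 10.78, 10.31 and 10.34 in monocytes. Replicate 2 of the Ly6C-high group was the highest of all 9 arrays and replicate 1 the lowest. None of the 3 comparisons passed: the differences were -0.69 ± 0.78 between the microglia groups (adjusted p = 0.581), -1.68 ± 0.78 for Ly6C-high microglia against monocytes (adjusted p = 0.148) and -0.99 ± 0.78 for Ly6C-low microglia against monocytes (adjusted p = 0.518). Without Ly6C-high replicate 2, Cyba was called lower in Ly6C-high microglia, by 1.72 against Ly6C-low microglia (adjusted p = 0.0204) and by 2.71 against monocytes (adjusted p = 0.00222). With Ly6C-low replicate 3 left out as well, the first of these did not pass (adjusted p = 0.0642). Without Ly6C-high replicate 1 instead, the differences were 0.19 (adjusted p = 0.886) and -0.80 (adjusted p = 0.378). The direction between the microglia groups thus depended on the array left out. Over all alternatives the adjusted p-values of these differences ran from 0.0204 to 0.886 and from 0.00222 to 0.378.

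Ncf4, whose product binds the membrane lipid phosphatidylinositol 3-phosphate, was at 7.39, 9.12 and 6.27 in Ly6C-high microglia, against 8.40, 8.41 and 8.65 in Ly6C-low microglia and 10.23, 10.44 and 9.75 in monocytes. The Ly6C-high arrays fell on both sides of the Ly6C-low arrays, and all monocyte arrays lay above both. Ly6C-high microglia were 5.84-fold below monocytes (log2 fold change -2.55 ± 0.59, adjusted p = 0.0178), a call lost in 4 of 22 alternatives. It was 9.90-fold without Ly6C-high replicate 2 and 3.69-fold without replicate 3. Without replicate 1 or monocyte replicate 1 or 2, and with only the 6 arrays compared, the call was lost, with adjusted p-values of 0.0551 to 0.0664. The difference between the microglia groups was -0.89 ± 0.59 (adjusted p = 0.364) and became -1.65 without Ly6C-high replicate 2 (adjusted p = 0.0118, with 0.0118 to 0.747 over the alternatives).

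Rac2, the GTPase gene of blood cells, was at 8.89, 9.58 and 8.69 in Ly6C-high microglia, against 8.93, 9.82 and 9.59 in Ly6C-low microglia and 11.23, 11.21 and 11.29 in monocytes. The microglia groups overlapped and both lay below the monocytes. Ly6C-high microglia differed from monocytes by -2.19 ± 0.28 (4.56-fold lower, adjusted p = 9.35e-04) and Ly6C-low microglia by -1.80 ± 0.28 (3.47-fold lower, adjusted p = 0.00289). Both calls held in all 22 alternatives. Minus Ptprc and relative to the monocyte mean, Rac2 was at 1.17, -0.11 and 1.34 in the Ly6C-high arrays. The Ly6C-low arrays were at -0.45, -0.03 and -0.33 on that scale, and the monocyte arrays at -0.08, 0.08 and -0.004, so both microglia groups overlapped with monocytes. Minus Itgam, Rac2 was at 0.39, -0.41 and -0.86 in the Ly6C-high arrays and -3.32, -2.35 and -2.50 in the Ly6C-low arrays. The monocyte arrays were at -0.03, -0.18 and 0.21 there. Between the microglia groups the difference was -0.39 ± 0.28, with a 95% interval from -1.02 to 0.24 (adjusted p = 0.385).

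Nos2 was dim in all 3 groups on average. It stood at 5.85, 5.64 and 6.29 in Ly6C-high microglia, against 5.42, 5.36 and 5.36 in Ly6C-low microglia and 5.22, 5.39 and 5.40 in monocytes. All 3 of its group means were below 6.13, the median of all gene means, and the table has no detection calls. Ly6C-high replicate 3 alone was above that value. The Ly6C-high arrays were above all others by a small amount. The difference from monocytes was 0.59 ± 0.16 (1.51-fold, adjusted p = 0.0326), a call that 10 of 21 alternatives lost, with adjusted p-values up to 0.119 under cyclic loess. Against Ly6C-low microglia the difference of 0.55 ± 0.16 did not pass (adjusted p = 0.0542) but did in 4 of 21 alternatives, one of them without Ly6C-high replicate 2 (0.69, adjusted p = 0.0150). Ly6C-low microglia and monocytes differed by 0.04, with a 95% interval from -0.32 to 0.41.

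**Figure D2:**
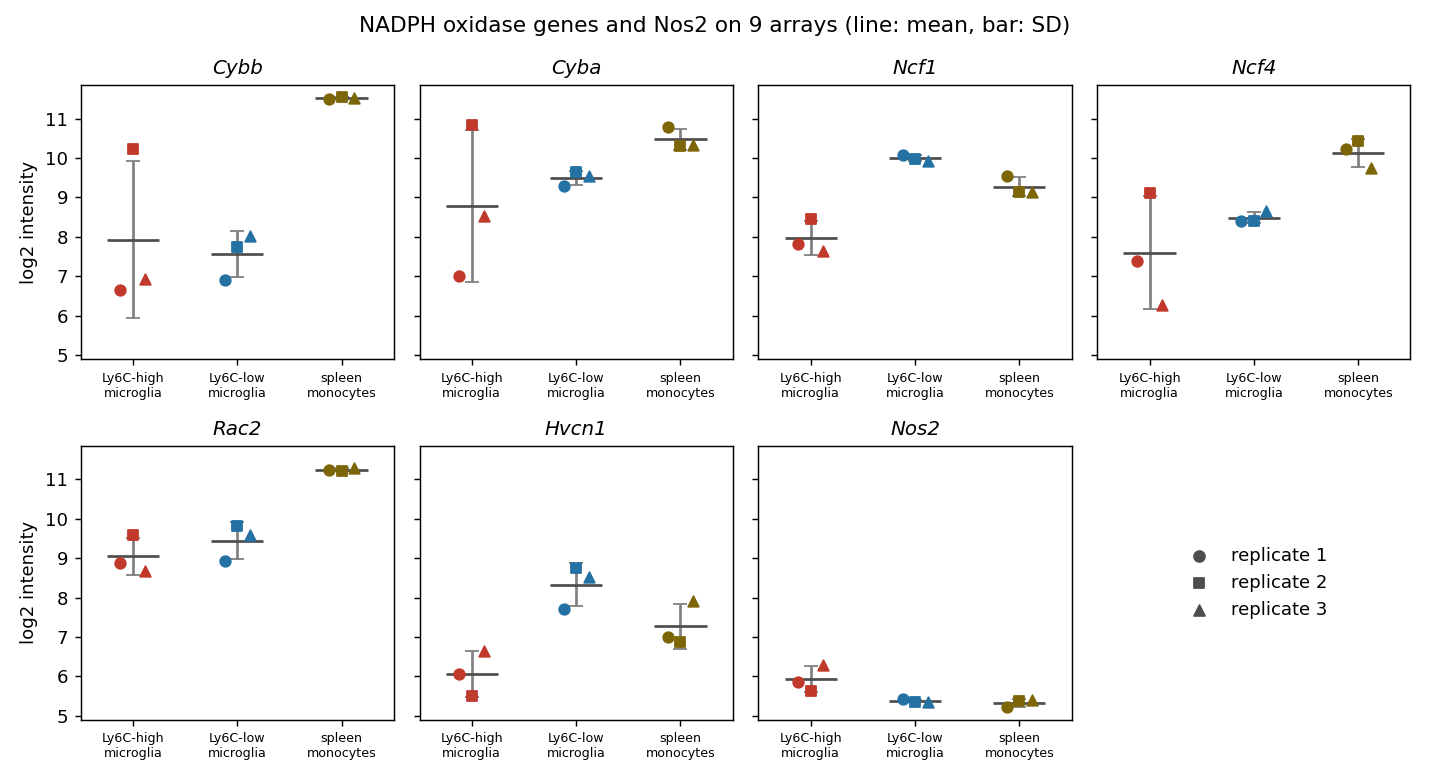
Log2 intensity (y axis) of the 7 genes on each array, by group (x axis). Points are arrays with the replicate as the marker shape, lines are means and bars are SD over 3 arrays. Ncf1 and Hvcn1 are lowest in the 3 Ly6C-high arrays, Cybb and Rac2 are highest in the 3 monocyte arrays, and Cybb, Cyba and Ncf4 are spread widely within the Ly6C-high group, with replicate 2 on top.

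Against spleen monocytes, which as blood phagocytes carry the oxidase, Ly6C-high microglia had 4 members lower (Cybb, Ncf1, Ncf4 and Rac2) and Nos2 slightly higher. These 5 calls of 7 stand beside 21.5% of all genes called in either direction, 14.6% lower and 6.88% higher. For 6 members, all but Cyba, every array of one group lay on one side of the other group, as for 45.9% of all genes. The median log2 fold change was -1.68 over the members and 0.09 over all genes. The 7 pan-leukocyte and myeloid genes were all called lower in this comparison, with a median of -1.89. Their part in the calls of the members was not tested. The neutrophil, B cell and T and NK cell lists were highest in the monocyte arrays, as given above. The part of those cells in these differences was not tested. Minus Ptprc within each array, Cybb, Ncf4 and Rac2 overlapped between these groups and Ncf1 lay higher in Ly6C-high microglia. Minus Itgam, all 4 overlapped. The overlap of Cybb rested on Ly6C-high replicate 2 on both scales. Relative to the monocyte mean, Cybb minus Ptprc was at -1.36, 0.27 and -0.71 in the Ly6C-high arrays. The monocyte arrays were at -0.09, 0.14 and -0.05 there. Minus Itgam, Cybb was at -2.14, -0.039 and -2.91 in the Ly6C-high arrays and -0.044, -0.13 and 0.17 in the monocyte arrays. Leaving out Ly6C-high replicate 2 or 3 gave 6 members called, beside 30.6% and 20.5% of all genes. With Ly6C-high replicate 1 left out 2 members were called, beside 19.3% of all genes, and with monocyte replicate 1 or 2 left out 2, beside 12.6% each. Without monocyte replicate 3 there were 3, beside 14.5%.

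Ly6C-low microglia had Cybb and Rac2 lower than monocytes. The 2 calls of 7 compare with 14.5% of all genes in either direction, 7.71% lower and 6.80% higher. With limma 0 members were higher, and 2 (Ncf1 and Hvcn1) were at an unadjusted p under 0.05. For 5 members the arrays did not overlap, Cybb, Cyba, Ncf4 and Rac2 below and Ncf1 above the monocytes, where 42.3% of all genes did not overlap. The members' median was -0.99 and that of all genes 0.05. Within each array, Cybb lay below every monocyte array on both scales. Relative to the monocyte mean it was at -2.76, -2.39 and -2.18 minus Ptprc and -5.62, -4.71 and -4.34 minus Itgam. Rac2, as given above, overlapped with monocytes minus Ptprc and lay below them minus Itgam. All 3 groups share 1 estimate of the spread in the fit, so the scatter of the Ly6C-high arrays also enters this comparison. Fitted on the 6 arrays of these groups alone, 5 members and 23.1% of all genes were called: Ncf4 (adjusted p = 0.00173) and Cyba (0.00669) were then also lower and Ncf1 (0.0112) higher in Ly6C-low microglia. Without Ly6C-high replicate 2 or 3, 4 were called, beside 17.1% and 15.4% of all genes, and without Ly6C-low replicate 1 only 1, Rac2, beside 11.1%. Comparisons that share a group are not independent of each other.

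**Figure D3:**
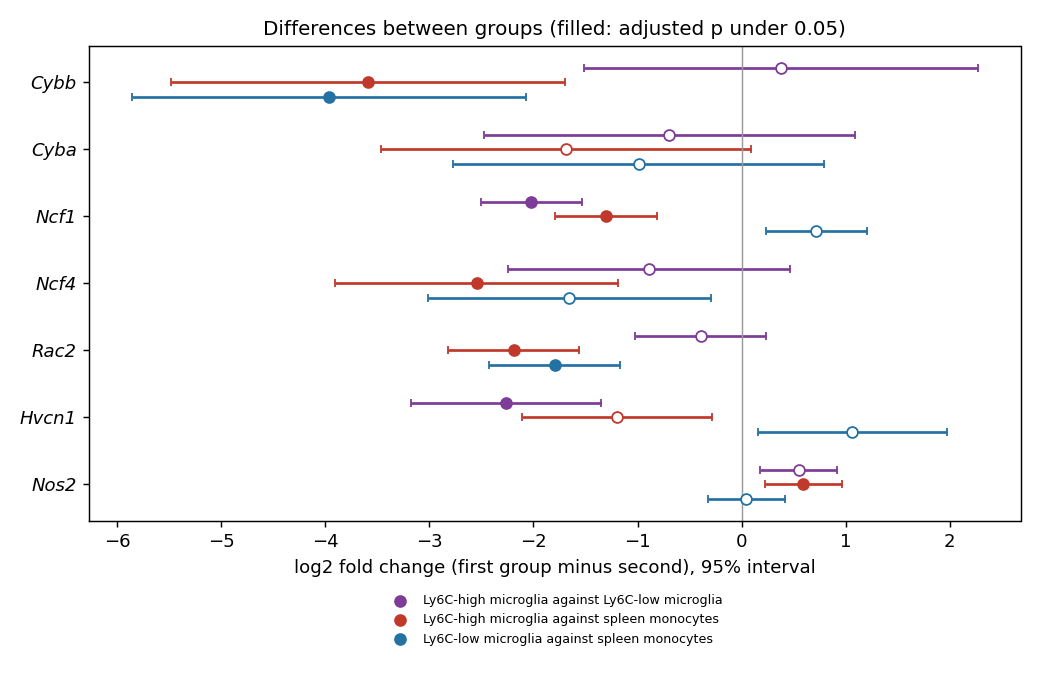
Log2 fold change (x axis, first group minus second) of each gene (y axis) in the 3 comparisons, with 95% intervals from limma. Filled points have an adjusted p under 0.05. Ncf1 and Hvcn1 are filled between the microglia groups, Cybb and Rac2 are filled in both comparisons with monocytes, and the intervals of Cybb, Cyba and Ncf4 are the widest.

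The members thus did not share 1 order of the groups. For Cybb and Rac2 monocytes were above both microglia groups, which did not differ from each other by the test. For Ncf4 the means ran from monocytes through Ly6C-low to Ly6C-high microglia, with neither neighbouring pair past the threshold. For Cyba the order of means was the same, with no difference called. For Ncf1 and Hvcn1 the Ly6C-low mean was highest and the Ly6C-high mean lowest, with Ly6C-low microglia and monocytes not called different.

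The contrast between Ncf1 and Cybb was read within each array, as Ncf1 minus Cybb on the log2 scale relative to the monocyte mean. It was 3.42, 0.47 and 2.97 in the Ly6C-high arrays, 5.42, 4.48 and 4.15 in the Ly6C-low arrays and 0.29, -0.16 and -0.14 in the monocyte arrays. The 3 groups did not overlap, and Ly6C-high replicate 2 was the microglia array closest to the monocytes. Hvcn1 minus Cybb was 3.66, -0.48 and 3.99 in the Ly6C-high arrays, 5.06, 5.27 and 4.75 in the Ly6C-low arrays and -0.24, -0.42 and 0.66 in the monocyte arrays. Here Ly6C-high replicate 2 lay below all 3 monocyte arrays, and the other Ly6C-high arrays above them. The pairs were chosen for their unlike orders, so these values are a description with no test.

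The likeness of 2 profiles was measured as the root mean square difference of their values, each centred on its own mean over the 9 arrays, so that 0 is an identical pattern. Among the members Ncf4 and Rac2 were closest (0.58 log2 units), followed by Ncf1 and Hvcn1 (0.66), and Cybb and Hvcn1 were farthest apart (2.39). Among 18605 other named genes, the 3 nearest to Cybb were Clec4a1 (0.27), the scavenger receptor gene Msr1 (0.30) and Arhgap15 (0.39). Ncf1 was nearest to Sirpa (0.18), which encodes the receptor for the "do not eat me" signal CD47, Slc37a2 (0.19) and Arhgap4 (0.21). Hvcn1 was nearest to Ly86 (0.25), which encodes a partner of the Toll-like receptor homologue CD180, the tetraspanin gene Cd9 (0.29) and Tmem104 (0.33).

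Rac2 was nearest to Tkt (0.19), which encodes transketolase of the pentose phosphate pathway, Rilpl2 (0.20) and Tank (0.20). Ncf4 had Alox5ap (0.34), needed for leukotriene synthesis, Emp3 (0.35) and Fam111a (0.36), and Cyba had Milr1 (0.20), Nifk (0.28) and Eapp (0.34). Nos2, which hardly varied, had Kifc3 (0.05), P4ha2 (0.08) and Zc2hc1a (0.08).

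The rest of the oxidase pathway was read from fixed lists. Among the other parts of the complex, Cybc1, which encodes a chaperone of the membrane core, was lower in Ly6C-high microglia than in Ly6C-low microglia (6.60 ± 0.10 against 7.64 ± 0.23, log2 fold change -1.04 ± 0.14, adjusted p = 0.00138) and than in monocytes (-0.89 ± 0.14, adjusted p = 0.00272). Rap1b, a small GTPase gene, was lower too (-0.58 ± 0.16, adjusted p = 0.0395, and -0.54 ± 0.16, adjusted p = 0.0413). The call of Rap1a was confined to Ly6C-high microglia against monocytes (-1.04 ± 0.27, adjusted p = 0.0268), and Rac1, the widely expressed relative of Rac2, was not called in any comparison (-0.20 ± 0.11 between the microglia groups, adjusted p = 0.294). In all, 2 of 4 were lower between the microglia groups, 3 of 4 in Ly6C-high microglia against monocytes and 0 of 4 in Ly6C-low microglia against monocytes. Of all genes, 15.4%, 21.5% and 14.5% were called in these comparisons. With both arrays of doubt left out the counts of the list were 1, 3 and 0, beside 12.4%, 24.6% and 12.2% of all genes. By limma 0 of 4 were at an unadjusted p under 0.05 in the last comparison. Of 9 genes of other NOX and DUOX enzymes, 0 passed between the microglia groups and 0 between Ly6C-high microglia and monocytes (limma, with 1 of 9 at an unadjusted p under 0.05 in each). In the comparison of Ly6C-high microglia with monocytes 1 was called higher without Ly6C-high replicate 2, and also without both arrays of doubt. Noxo1 was higher in Ly6C-low microglia than in monocytes (0.55 ± 0.11, adjusted p = 0.0131), and without both arrays of doubt the list had no call there.

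Genes whose products start oxidase assembly were mostly lower in Ly6C-high microglia. Of 18 kinases, lipases and Rac exchange factors 12 were lower and 1 higher than in Ly6C-low microglia, with a median log2 fold change of -1.66. These calls are 72.2% of the list, beside 15.4% of all genes. The 4 with the largest change were the Rac exchange factor gene Vav1 (-2.74 ± 0.38, adjusted p = 0.00181), the lipid kinase subunit Pik3cg (-2.53 ± 0.25, adjusted p = 3.29e-04), the Rac exchange factor gene Dock2 (-2.43 ± 0.55, adjusted p = 0.0176) and the phospholipase gene Plcg2 (-2.12 ± 0.38, adjusted p = 0.00584). Tiam1 was the 1 that rose (0.91 ± 0.15, adjusted p = 0.00352). Against monocytes 13 were lower in Ly6C-high microglia and none higher, while in Ly6C-low microglia 2 were lower and 3 higher, with a median of 0.01. The calls against monocytes are 72.2% of the list for Ly6C-high and 27.8% for Ly6C-low microglia, beside 21.5% and 14.5% of all genes. Without Ly6C-high replicate 2, the counts in the same order were 13 lower and 1 higher, 15 lower, and 3 lower and 7 higher. The shares of all genes were then 19.5%, 30.6% and 17.1%. No list was recounted without Ly6C-high replicate 1. This list averaged 6.69 in that array, against 7.76 and 7.22 in Ly6C-high replicates 2 and 3. The pan-leukocyte and myeloid genes, 7 in all, averaged 8.90, 10.6 and 9.11 in the Ly6C-high arrays, 10.9 to 11.3 in the Ly6C-low arrays and 11.6 in each monocyte array, and their part in these counts was not tested.

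**Figure D4:**
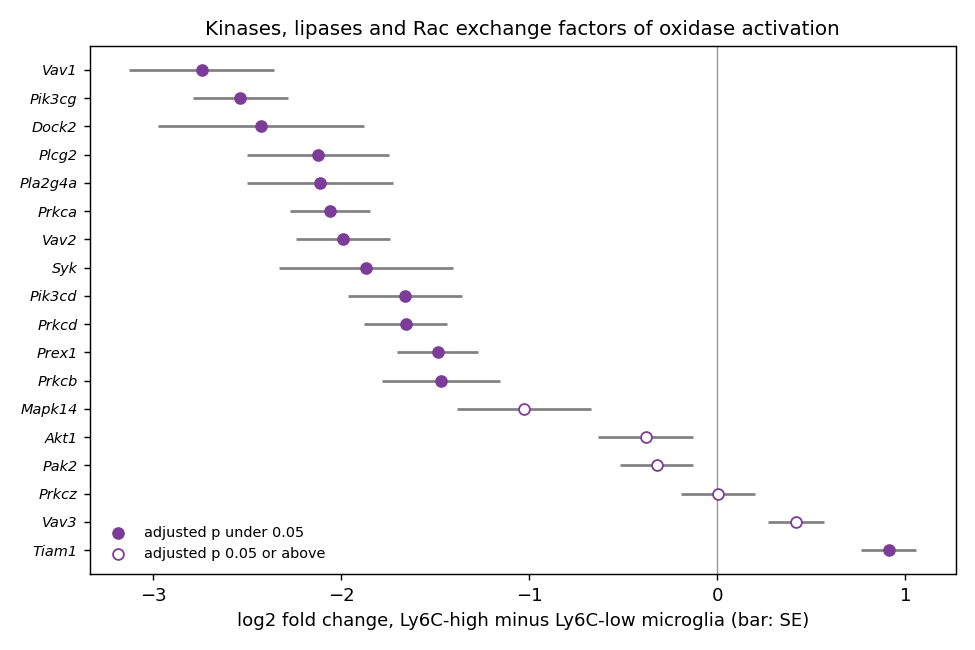
Log2 fold change (x axis, Ly6C-high minus Ly6C-low microglia, bars SE) of 18 genes of oxidase activation (y axis). Filled points have an adjusted p under 0.05. There are 12 filled points below 0, led by Vav1 at -2.74, and 1 above it, Tiam1 at 0.91.

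Where 15.4% of all genes were called, 3 of 8 transcription factor genes known to act on oxidase genes (37.5%) were lower in Ly6C-high than Ly6C-low microglia and none higher. They were Cebpa (-2.43 ± 0.19, adjusted p = 1.18e-04), Spi1, which encodes PU.1 (-1.71 ± 0.43, adjusted p = 0.0302), and the interferon regulatory factor gene Irf8 (-1.43 ± 0.20, adjusted p = 0.00189). The fourth by size, Elf1, had -0.92 ± 0.43 (adjusted p = 0.208). Spi1 was at 7.56, 9.50 and 7.84 in the Ly6C-high arrays, against 9.79, 10.18 and 10.04 in the Ly6C-low arrays and 10.51, 10.29 and 10.47 in the monocyte arrays, and like 5 of the 7 members (Cybb, Cyba, Ncf1, Ncf4 and Rac2) it was highest within its group in Ly6C-high replicate 2. Spi1 and Irf8 were also lower in Ly6C-high microglia than in monocytes (-2.13 ± 0.43, adjusted p = 0.0101, and -1.26 ± 0.20, adjusted p = 0.00336). Between Ly6C-low microglia and monocytes neither passed (adjusted p = 0.650 and 0.694), and Cebpa was higher in Ly6C-low microglia (2.43 ± 0.19, adjusted p = 9.32e-05). Against monocytes 2 of 8 (25%) were called for Ly6C-high and 1 of 8 (12.5%) for Ly6C-low microglia, near the 21.5% and 14.5% of all genes. Without Ly6C-high replicate 2, 4 factor genes were lower between the microglia groups and 5 in Ly6C-high microglia against monocytes. The shares of all genes were then 19.5% and 30.6%.

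Beside Nos2, 4 of 13 genes of nitric oxide and arginine metabolism rose in Ly6C-high against Ly6C-low microglia and none fell. This is 30.8% of the list, beside 15.4% of all genes. The largest change was that of the arginine transporter gene Slc7a1 (3.20 ± 0.16, adjusted p = 1.48e-05), followed by Ddah1, whose product breaks down an inhibitor of nitric oxide synthases (2.07 ± 0.20, adjusted p = 2.44e-04), Gch1, of cofactor synthesis (1.5 ± 0.23, adjusted p = 0.00273), and Nos3, the endothelial synthase gene (1.41 ± 0.27, adjusted p = 0.00827). Nos3 averaged 8.11 ± 0.44 in the Ly6C-high arrays, 6.70 ± 0.38 in the Ly6C-low arrays and 6.34 ± 0.28 in the monocyte arrays, and moved with the endothelium list given above. Its part in the values of these genes was not tested. Set against monocytes, Ly6C-high microglia had 4 of the 13 higher and 1 lower, and the Ly6C-low cells 1 higher and 3 lower. These are 38.5% and 30.8% of the list, beside 21.5% and 14.5% of all genes.

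Of 22 genes that remove superoxide and peroxide, 13.6% were called between the microglia groups, near the 15.4% of all genes. Ly6C-high microglia had 1 higher and 2 lower, the thioredoxin gene Txn1 (1.02 ± 0.18, adjusted p = 0.00516), the heme oxygenase gene Hmox1 (-2.12 ± 0.26, adjusted p = 9.45e-04) and the thioredoxin reductase gene Txnrd1 (-0.72 ± 0.19, adjusted p = 0.0351, named after its value was seen). Gclc (-1.31 ± 0.43, adjusted p = 0.0800) and Prdx3 (-0.91 ± 0.59, adjusted p = 0.348) did not pass. Against monocytes 5 of 22 (22.7%) were lower in each microglia group and none higher. Of all genes, 21.5% were called for Ly6C-high and 14.5% for Ly6C-low microglia in either direction. Lower calls alone were 14.6% and 7.71% of all genes. Without Ly6C-high replicate 2 the list had 12 lower for Ly6C-high and 7 for Ly6C-low microglia, beside 30.6% and 17.1% of all genes. NADPH is the substrate of the oxidase. Of 6 measured genes of NADPH-making enzymes and the pentose phosphate pathway, none was called between the microglia groups (0 of 6 with limma, 1 at an unadjusted p under 0.05, and 1 lower without Ly6C-high replicate 2). G6pdx, also listed, had no value here. In each microglia group 4 (66.7%) were lower than in monocytes, where 21.5% and 14.5% of all genes were called, and 5 without Ly6C-high replicate 2. Tkt differed by -1.89 ± 0.27 in Ly6C-high (adjusted p = 0.00196) and -1.49 ± 0.27 in Ly6C-low microglia (adjusted p = 0.00713), Pgd by -2.10 ± 0.55 (adjusted p = 0.0285) and -0.66 ± 0.55 (adjusted p = 0.549), Idh1 by -0.87 ± 0.27 (adjusted p = 0.0532) and -1.36 ± 0.27 (adjusted p = 0.0108), and Me1 by 0.38 ± 0.42 and 0.02 ± 0.42, not called.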

How the data were processed

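The authors deposited 1 table of log2 intensities for the 9 arrays. The tools listed per the submitters' processing notes are RMA and oligo, without versions or settings. Of 34760 probe sets, 21640 have 1 symbol in the platform annotation, 1321 carry several and 11799 have no symbol here. Each gene was represented by its brightest probe set by mean over the 9 arrays. Values were used as deposited. limma 3.58.1 in R 4.3.3 (lmFit, eBayes) fitted 3 group means to all 9 arrays, with Benjamini-Hochberg adjustment over 19937 genes, two-sided. The code was tested on simulated data. The members, lists and tests were chosen with earlier results of these data known. The text names all members and up to 4 genes of each list by size of change between the microglia groups. It also names 3 nearest genes for each member, without predicted or clone-based symbols. Of genes beyond these, Tiam1, Txnrd1, Asl and Arg1 were named after their values were seen. Promoters are RefSeq's, GRCm38.p6. The number of arrays limits the precision. Alternatives covered normalization, filtering, probe set choice, array weights, priors, pairing and arrays left out. Array weights by group, and the list counts without the arrays of doubt, were added after seeing the data.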

Additional observations from a re-analysis of the deposited data

How the results depend on the processing

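Of the 9 member calls over the 3 comparisons, 5 held in every one of 22 alternatives: Ncf1 in both Ly6C-high comparisons, Hvcn1 between the microglia groups and Rac2 in both comparisons with monocytes. The other 4 were lost in at least 1, and 9 of the 12 differences not called were called in at least 1. No called difference changed sign. No alternative read a gene against a leukocyte gene within the array. Several alternatives kept a member's difference as it was and changed only its spread or adjustment. Among them are those of probe set choice, since each member has 1 probe set. The alternatives are thus not independent checks. When single arrays were left out, members called numbered 2 to 5 between the microglia groups. They numbered 2 to 6 for Ly6C-high and 1 to 4 for Ly6C-low microglia against monocytes. The matching shares of all genes called were 9.81% to 19.5%, 12.6% to 30.6% and 9.35% to 18.9%. With only the 6 arrays compared, 2 members were called for Ly6C-high and 5 for Ly6C-low microglia against monocytes. Of all genes, 14.8% and 23.1% were called there. For Ly6C-low microglia against monocytes 5 members were called with array weights and 4 with weights by group. With both arrays of doubt (Ly6C-high 2, Ly6C-low 3) left out 4 were called there, beside 12.2% of all genes. The 3080 genes called between the microglia groups became 1956 to 3888 with single arrays left out and 2038 with 6 arrays. The 4290 of Ly6C-high microglia against monocytes became 2505 to 6091. The 2894 of Ly6C-low microglia against monocytes became 1864 to 3778, 4614 with 6 arrays, 5738 with array weights and 5175 with weights by group. The share of calls that were higher in Ly6C-high microglia was 29.1% against Ly6C-low microglia and 32% against monocytes, and under quantile normalization 40.8% and 45.1% (cyclic loess 40.8% and 43.5%). The dim Nos2 gave no value once dim genes were left out.

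The titles number the replicates of each group alike, but nothing says that a number marks a shared animal. The sample descriptions number the arrays otherwise, with 8 on Ly6C-high 1 and Ly6C-low 1 and 11 on Ly6C-high 2 and Ly6C-low 3, the arrays of doubt. Deviations of same-numbered Ly6C-high and Ly6C-low arrays correlated at 0.21, 0.12 and 0.03 by title, those of the pairs by description at 0.21 and 0.12, and not every array correlated best with its own number. With the title number as a replicate block 2973, 4295 and 2795 genes and 2, 6 and 2 members were called in the 3 comparisons. With the number in the sample descriptions as a random block the counts were 3936, 4286 and 2937 genes and 3, 5 and 2 members.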

Other observations

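In the deposited table, a gene's value was often the same to the last digit on several arrays. Of 19937 genes, 3716 (18.6%) had 1 exact value on at least 3 of the 9 arrays and 469 (2.35%) on at least 5. None of the 7 members repeated a value on any pair of arrays. Among the genes of arginine metabolism, Asl held 7.34 on 5 arrays and Arg1 held 5.72 on 4, including all 3 Ly6C-low arrays, so that their SD of 0 there is not a measure of the spread between samples. What produced such repeats was not tested.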
